A study of Mus musculus with 56 samples.

Results

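Spleen regulatory T cells (Tregs) of mice kept for 4 weeks on the diet labelled HFD were compared with those of mice kept for 4 weeks on the diet labelled NCD, in 3 libraries against 2. These 5 libraries, all that carry these titles, are among 56 in the series, and expression was described across the 14686 genes that passed a filter on low counts in spleen. The mice of both groups were C57BL/6 carrying the vTreg53 T cell receptor transgene (vTreg53 Tg+), started the diets at 12 weeks of age, and gave Tregs bearing the transgenic receptor, sorted and re-sorted to 1000 cells per library. Both groups therefore represent Tregs of a single receptor specificity rather than the whole splenic Treg population, and the labels speak of recipient mice without saying what was transferred. The labels do not spell out the diet abbreviations, and they do not say whether the replicate libraries came from separate mice. The p-values of the spleen comparisons measure the spread between libraries within groups, estimated over all 26 spleen libraries. That spread may be technical. The other libraries without HFD from spleen were 3 each of week 0 and of NCD weeks 2, 8 and 16, which makes 12. The remaining spleen libraries were 3 each of HFD weeks 2, 8 and 16, and visceral adipose tissue (VAT) at week 4 gave 2 HFD and 3 NCD libraries.

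Tregs, which hold other immune cells in check, are CD4 T cells whose identity rests on Foxp3, a forkhead transcription factor. Most Tregs of the spleen are recirculating cells that enter lymphoid tissue with the chemokine receptor Ccr7, while Tregs settled in adipose tissue rely on the nuclear receptor Pparg and the IL-33 receptor Il1rl1. Integrins, the paired adhesion receptors of T cells, and the signalling proteins below the T cell receptor are among the genes through which such cells respond to their surroundings.

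The labels' tissue tag reads VAT also for the spleen libraries, so tissue was taken from the titles and checked on defining genes. Pparg was at 0 to 3.04 CPM (counts scaled to the library total with edgeR's TMM factors) in the 5 week 4 spleen libraries, against 17.0 to 122 CPM in the 25 VAT libraries. Areg, an epidermal growth factor family ligand made by VAT Tregs, was at 0 to 2.89 CPM, against 360 to 1867 CPM in VAT. Foxp3 stood at 736 to 875 CPM in the 5 libraries, and Trbv2 took 93.4 to 95.7% of the counts of beta variable segments. Trav14n-3 was the leading alpha variable segment, with 33.1, 29.8 and 59.3% of alpha segment counts in HFD replicates 1, 2 and 3. It took 27.2 and 31.7% in NCD replicates 1 and 2, so the high value rests on HFD replicate 3. The 5 libraries held 3944177 to 5004267 counts, and 3 counts in a library were worth 0.603 to 0.773 CPM. Markers of other cell types were low or overlapped between the groups, with one exception. B cell markers summed to 1616 to 2164 CPM in HFD libraries and 1692 to 1773 CPM in NCD libraries, of which Ighm was 1533 to 2069 CPM with HFD and 1630 to 1695 CPM with NCD. Macrophage markers summed to 9.54 to 16.3 CPM with HFD and 13.1 to 15.0 CPM with NCD, with Adgre1, C1qa and Cd14 at 0. Stromal and endothelial markers were the exception, at 275 to 356 CPM with HFD and 377 CPM in both NCD libraries, of which Pecam1 was 270 to 352 CPM with HFD and 367 to 373 CPM with NCD, and their part in the results was not tested. Adipocyte markers summed to at most 1.55 CPM with HFD and 1.81 CPM with NCD, and none of the members tested from the 10 cell type lists passed the test. In bulk libraries such as these, fewer cells of a type and less RNA per cell cannot be told apart.

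At week 4, 176 genes were higher with HFD and 6 were lower (182 of 14686, 1.24%, with 1.2% higher; edgeR quasi-likelihood test, Benjamini-Hochberg adjusted p under 0.05). Of these, 159 had moved at least 2-fold, and the median log2 fold change of the 176 was 1.45, against -0.004 over all genes tested. The integrin genes Itgb7, Itgb1 and Itgav, the genes Dusp2, Socs1 and Tnfaip3, the adiponectin receptor Adipor1 and the ribosomal protein gene Rps2 were among the genes that rose. The genes that define Tregs, Foxp3, Il2ra, Ctla4 and Ikzf2, did not pass the test. The count rested on 1 library: without NCD replicate 2, edgeR called 0 genes (793 at an unadjusted p under 0.05), while without NCD replicate 1 it called 268 (241 higher, 27 lower). Part of the 182 genes lost their call without NCD replicate 1, so the larger count of that run holds many other genes. Without HFD replicate 1, 2 or 3, edgeR called 147, 120 or 123. With no filter on low counts 305 genes were called and with DESeq2 307.

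**Figure D1:**
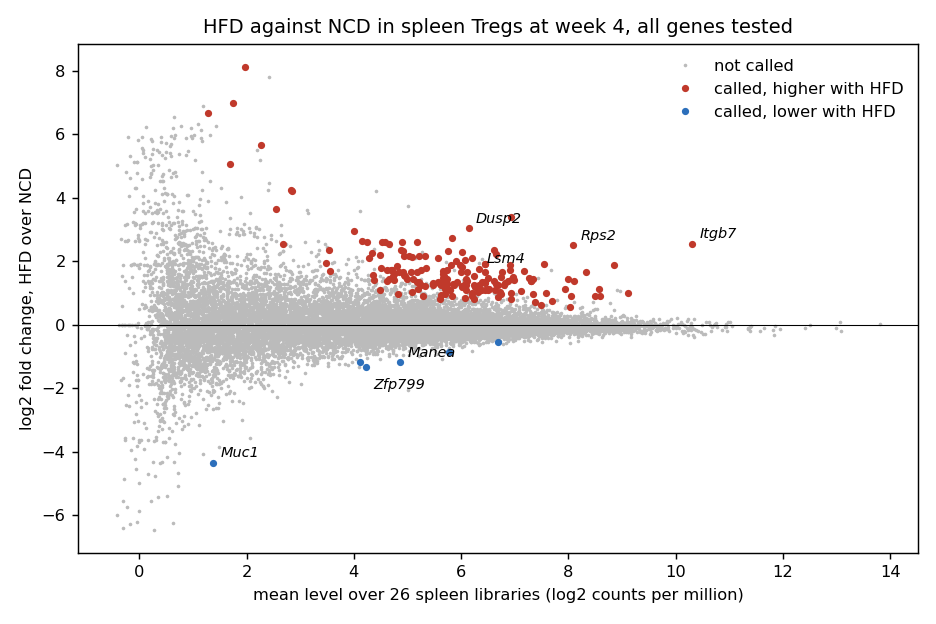
Every gene tested in spleen at week 4, with its mean level over the 26 spleen libraries in log2 CPM on the horizontal axis and the log2 fold change of HFD over NCD on the vertical axis. The 176 red points are called higher with HFD and the 6 blue points called lower (edgeR, adjusted p under 0.05); most red points lie above a mean level of 4, and Itgb7 is the red point farthest to the right.

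Lsm4, a subunit of the ring that binds the U6 splicing RNA and decaying messengers, had the smallest p. It stood at 149, 146 and 139 CPM in HFD libraries, against 47.2 and 38.2 CPM in NCD libraries, a log2 fold change of 1.76 (SE 0.24; edgeR adjusted p 0.000786). The groups did not overlap, and each was tight. Adipor1, a receptor for the fat-derived hormone adiponectin, had 175, 203 and 181 CPM with HFD and 75.3 and 56.1 CPM with NCD (log2 fold change 1.51, SE 0.22, edgeR adjusted p 0.00169). Zbtb7a, a zinc finger repressor of transcription, had 117, 121 and 114 CPM with HFD and 30.2 and 26.6 CPM with NCD (log2 fold change 2.05, SE 0.31, edgeR adjusted p 0.00171). Acbd6, an acyl-CoA-binding protein, had 55.2, 57.9 and 49.9 CPM with HFD and 9.53 and 9.25 CPM with NCD (log2 fold change 2.53, SE 0.39, edgeR adjusted p 0.00171). In all 4 genes every HFD library lay above both NCD libraries. The naming rule required this order, all 176 genes called higher had it, and it was found in 13.7% of all genes tested, with the opposite order in 13.3%, so it adds nothing to the calls. The other rising genes with the smallest p were Atxn2l, an RNA-binding protein of stress granules, Polg, the catalytic subunit of the mitochondrial DNA polymerase, and Pole4, an accessory subunit of DNA polymerase epsilon. With them came Vps26b, a subunit of the retromer that returns membrane proteins from endosomes, Clptm1, and Nudt18, a nudix hydrolase. Their log2 fold changes ran from 1.30 (Polg, SE 0.21) to 2.31 (Atxn2l, SE 0.36), with adjusted p of 0.00187 to 0.00208. Polg, for example, had 146, 157 and 159 CPM with HFD and 63.8 and 62.0 CPM with NCD.

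Among integrin and chemokine receptor genes 3 of 26 rose, 0 fell and 23 did not pass the test, beside 1.2% higher and 0.0409% lower of all genes, and the median log2 fold change was 0.40. Itgb7, the beta 7 chain that pairs with alpha 4 or alpha E chains in gut-homing and epithelial adhesion, was the most abundant of the genes that rose. It had 2195, 2158 and 2661 CPM in HFD libraries, against 435 and 359 CPM in NCD libraries (log2 fold change 2.56, SE 0.50, edgeR adjusted p 0.0131). Every HFD library held more Itgb7 than either NCD library, as in all 176 genes called higher. Itgb1, the beta 1 chain of the receptors for fibronectin, collagen and laminin, had 255, 190 and 325 CPM with HFD and 104 and 79.9 CPM with NCD (log2 fold change 1.48, SE 0.37, edgeR adjusted p 0.0490). Itgav, the alpha v chain that helps to activate TGF-beta, had 84.5, 85.6 and 104 CPM with HFD and 31.5 and 49.3 CPM with NCD (log2 fold change 1.17, SE 0.27, edgeR adjusted p 0.0180). Both groups were separate for these genes too, with more spread in Itgb1. The laminin chain gene Lamc1 had 24.7, 20.02 and 37.3 CPM with HFD and 9.76 and 8.25 CPM with NCD (log2 fold change 1.61, SE 0.28, edgeR adjusted p 0.00318), and was picked out after its values were seen.

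Other called members of the gene lists were Dusp2, Socs1, Tnfaip3, Ier2 and Nfil3. Related inhibitors in the same lists did not pass the test and had values of both signs, such as Socs3 at -0.43, Dusp4 at -0.35, Spry1 at -0.67, Dusp5 at 0.40 and Nfkbia at 0.01 (log2 fold changes). Dusp2, a nuclear phosphatase of MAP kinases, had 132, 192 and 184 CPM with HFD and 30.6 and 10.9 CPM with NCD (log2 fold change 3.04, SE 0.60, edgeR adjusted p 0.0122). Socs1, which blocks JAK kinases below cytokine receptors, had 78.4, 55.7 and 59.4 CPM with HFD and 22.7 and 30.6 CPM with NCD (log2 fold change 1.27, SE 0.25, edgeR adjusted p 0.00719). Tnfaip3, the NF-kB inhibitor A20, had 212, 141 and 172 CPM with HFD and 104 and 62.2 CPM with NCD (log2 fold change 1.08, SE 0.27, edgeR adjusted p 0.0371). The 2 groups of libraries did not overlap in any of these genes, as in all 176 genes called higher. NCD replicate 2 was the lowest for Dusp2 and Tnfaip3 but not for Socs1. The immediate early gene Ier2 had 159, 163 and 170 CPM with HFD and 44.7 and 41.6 CPM with NCD (log2 fold change 1.93, SE 0.43, edgeR adjusted p 0.0235). Other genes of immediate early responses did not pass the test: Junb had 324, 269 and 366 CPM with HFD and 306 and 331 CPM with NCD, and Nr4a1, a target of T cell receptor signals, had 73.2, 55.5 and 70.1 CPM with HFD and 50.8 and 68.6 CPM with NCD. Their adjusted p were 0.999 and 0.947 (edgeR). Nfil3, a basic leucine zipper factor counted here with the circadian clock genes, had 28.6, 31.6 and 34.1 CPM with HFD and 5.45 and 8.05 CPM with NCD (log2 fold change 2.21, SE 0.47, edgeR adjusted p 0.0118).

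**Figure D2:**
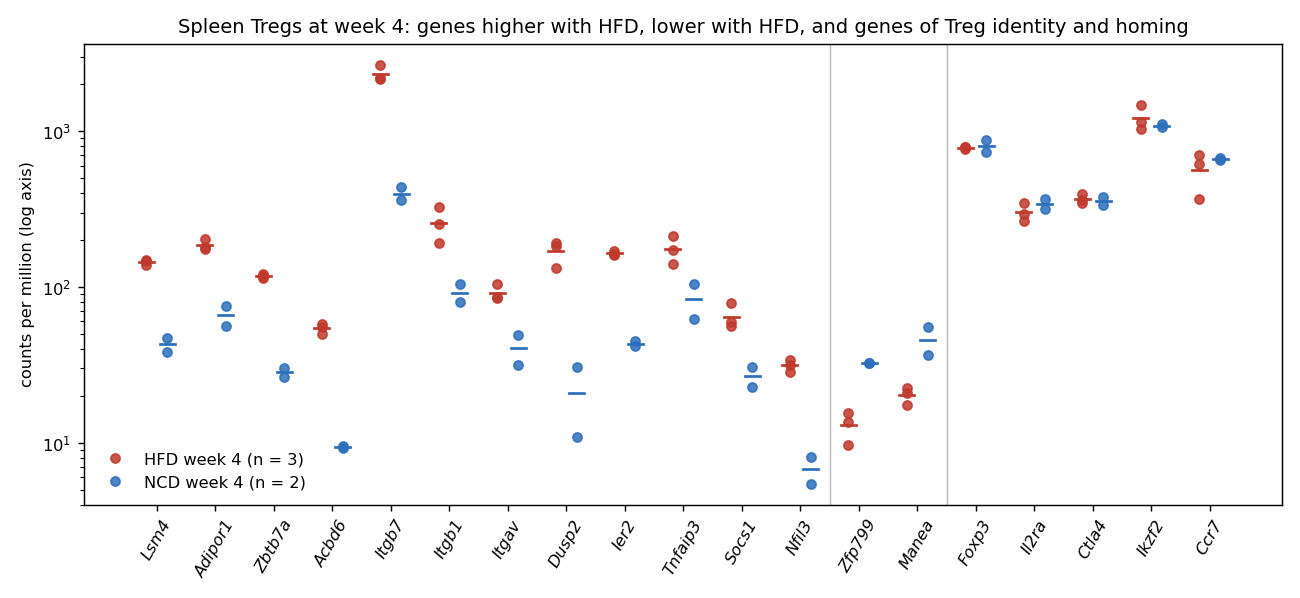
CPM on a log axis of 19 genes in each spleen library of week 4, HFD libraries in red on the left of each pair (n = 3) and NCD libraries in blue on the right (n = 2), with group means as bars. The first 12 genes were called higher with HFD, Zfp799 and Manea were called lower, and the 5 genes of Treg identity and homing on the right overlap between the diets or lie close together; Itgb7 is at 2158 to 2661 CPM with HFD and 359 to 435 CPM with NCD.

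Kinases and other signal carriers were also among the genes that rose, and those named here were picked out after their values were seen. Rasgrp1, which activates Ras below the T cell receptor, had 421, 496 and 449 CPM with HFD and 272 and 212 CPM with NCD (log2 fold change 0.92, SE 0.20, edgeR adjusted p 0.0153). Map2k2, a MAP kinase kinase below Ras, had 208, 212 and 199 CPM with HFD and 102 and 56.5 CPM with NCD (log2 fold change 1.39, SE 0.33, edgeR adjusted p 0.0369). Of the protein kinase C genes, Prkch had 340, 448 and 437 CPM with HFD and 163 and 209 CPM with NCD (log2 fold change 1.14, SE 0.26, edgeR adjusted p 0.0222). Prkca and Prkcd rose by 1.13 and 1.41 on the log2 scale (edgeR adjusted p 0.0319 and 0.0107). Tgfbr2, the type II TGF-beta receptor, had 235, 269 and 323 CPM with HFD and 135 and 143 CPM with NCD (log2 fold change 0.99, SE 0.24, edgeR adjusted p 0.0300). Bcl11b, a transcription factor that keeps T cell identity, had 600, 565 and 555 CPM with HFD and 260 and 265 CPM with NCD (log2 fold change 1.13, SE 0.22, edgeR adjusted p 0.00907).

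Of the other genes that rose, 3 that encode mitochondrial proteins were picked out after their values were seen, with no list or test behind the choice. Glud1, the glutamate dehydrogenase of the mitochondrial matrix, had 467, 470 and 497 CPM with HFD and 192 and 108 CPM with NCD (log2 fold change 1.67, SE 0.32, edgeR adjusted p 0.00827). Letm1, an inner membrane protein of ion exchange, had 198, 191 and 213 CPM with HFD and 96.7 and 59.3 CPM with NCD (log2 fold change 1.37, SE 0.25, edgeR adjusted p 0.00429). Iscu, the scaffold for iron-sulfur clusters, had 54.6, 43.4 and 42.7 CPM with HFD and 13.6 and 15.7 CPM with NCD (log2 fold change 1.68, SE 0.32, edgeR adjusted p 0.00506). Of 55 nuclear genes of oxidative phosphorylation 0 passed the test, near the 1.24% of all genes, with a median log2 fold change of -0.08. The 8 mitochondrially encoded genes tested had a median of -0.27 and 0 passed, and all mitochondrial transcripts took 1.18 to 1.40% of counts with HFD and 1.42 to 1.56% with NCD.

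Only 6 genes were lower with HFD (0.0409% of those tested). Zfp799, a zinc finger gene, had 13.7, 9.65 and 15.4 CPM with HFD and 32.7 and 32.6 CPM with NCD (log2 fold change -1.33, SE 0.30, edgeR adjusted p 0.0152). Manea, a Golgi mannosidase that trims N-linked glycans, had 17.5, 20.98 and 22.6 CPM with HFD and 36.5 and 55.1 CPM with NCD (log2 fold change -1.17, SE 0.28, edgeR adjusted p 0.0287). The NCD libraries were above all HFD libraries in both genes, an order that the naming rule required and that 13.3% of all genes tested had. The other four, named because the count is small, were Zfp169, Snapc3, a subunit of the complex that starts small nuclear RNA transcription, the predicted gene Gm15446, and Muc1. Muc1, a cell surface mucin, was at 0.773, 0 and 0 CPM with HFD and 2.95 and 8.05 CPM with NCD. In HFD libraries that is at or under the worth of 3 counts, so no fold is given. Zinc finger genes of this family share sequence, and the treatment of reads with several matches was not stated, so their values are uncertain. Rps2 is uncertain for the same reason, since it has processed copies in the genome. It had 556, 555 and 475 CPM with HFD and 108 and 78.6 CPM with NCD (log2 fold change 2.50, SE 0.50, edgeR adjusted p 0.0142), and was the 1 call among 86 cytosolic ribosomal protein genes tested, near the 1.24% of all genes.

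The genes that define Tregs did not pass the test. Foxp3 had 786, 794 and 769 CPM with HFD and 875 and 736 CPM with NCD (log2 fold change -0.04, SE 0.09, edgeR adjusted p 0.941). Ctla4, an inhibitory receptor, had 343, 363 and 394 CPM with HFD and 375 and 337 CPM with NCD, and Ikzf2, the transcription factor Helios, had 1034, 1137 and 1478 CPM with HFD and 1104 and 1059 CPM with NCD. The ranges overlapped in each. Of the 20 Treg core genes 0 passed the test, and their median log2 fold change was 0.16. Homing genes of resting Tregs, 22 in all, had a median of -0.21 and 0 calls. Since 1.24% of all genes were called, 0 calls in lists this short says little about either list. Ccr7 had 620, 699 and 367 CPM with HFD and 650 and 675 CPM with NCD. HFD replicate 3 was the lowest library for Ccr7. The same library was the highest of the 5 for Mki67, a marker of dividing cells, at 105 CPM, beside 36.9 and 33.0 CPM in the other HFD libraries and 46.3 and 17.9 CPM with NCD. It was also highest for Klrg1, a receptor of effector Tregs, at 281 CPM, beside 173 and 229 CPM with HFD and 172 and 95.1 CPM with NCD.

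Over 28 lists of Treg and T cell biology, 693 of 740 genes were tested, 10 were higher and 0 lower. That is 1.44% of the members, near the 1.24% of all genes, and 17 lists had no call. Cell cycle genes had the highest median, 1.07, with 38 of 40 above 0, beside 49.5% of all genes. Yet 0 of the 40 passed the test and 8 reached an unadjusted p under 0.05 (edgeR), beside 1414 of all 14686 genes. The summed level of cell cycle genes was 1759, 1752 and 2550 CPM with HFD and 1574 and 1075 CPM with NCD. The groups were thus separate, while HFD replicate 3 and NCD replicate 2 stood at the ends. The other spleen libraries without HFD ran from 1140 to 2518 CPM, which covers HFD replicates 1 and 2 and NCD replicate 1. Genes of the VAT-Treg programme had a median of 0.67 with 1 of 18 called, Itgav, and summed to 1158, 1136 and 1780 CPM with HFD and 1252 and 814 CPM with NCD, which overlap. Effector Treg genes had a median of 0.26 with 1 of 39 called, Itgb1, and no member of the type I interferon list (53 tested, median -0.09), the fatty acid oxidation, uptake and storage list (26 tested, median 0.08) or the sterol and fatty acid synthesis list (29 tested, median -0.10) was called. Of the 22 genes of insulin, leptin and adipokine signalling only Adipor1 was called.

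**Figure D3:**
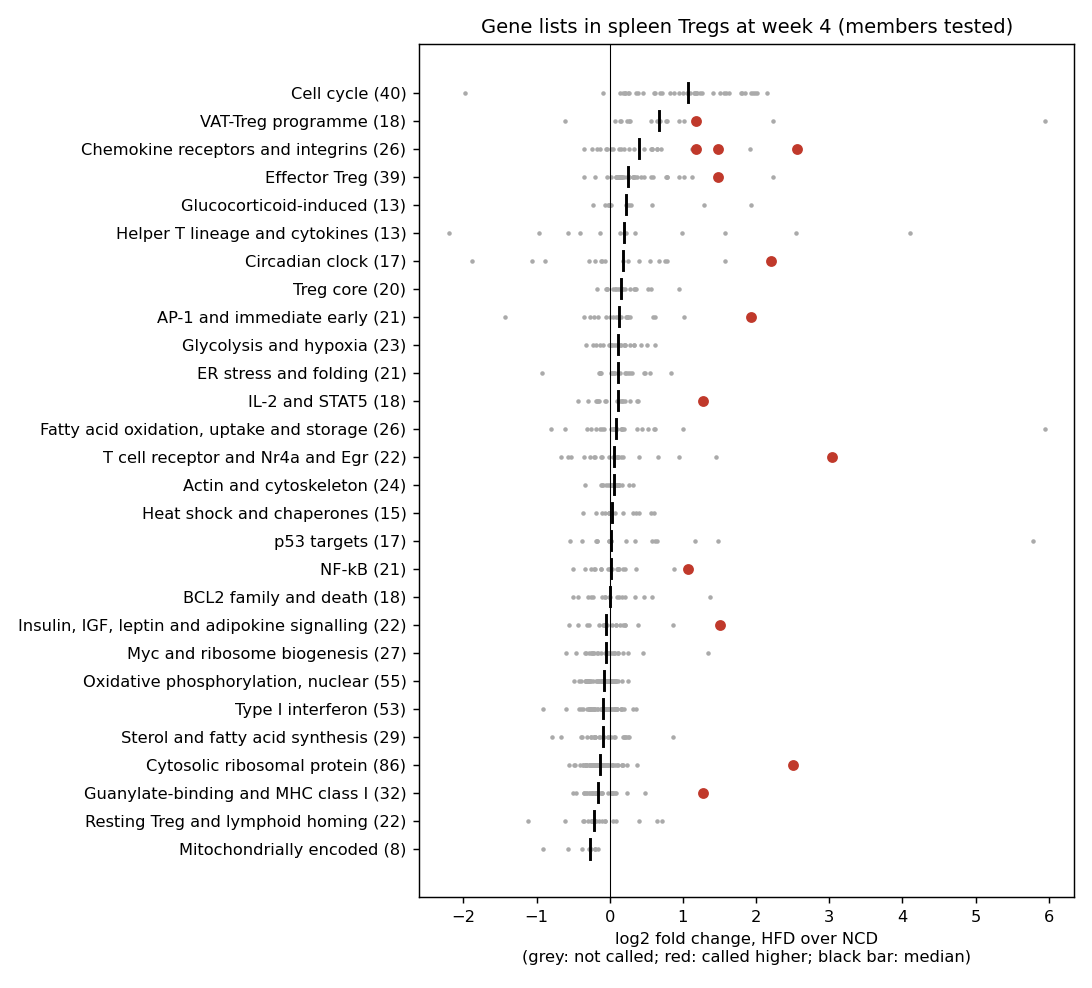
Log2 fold changes of HFD over NCD in spleen at week 4 for the members of 28 gene lists, each point a gene, with the number tested in brackets, called genes in red and the median of each list as a black bar. Lists run from the highest median, 1.07 for cell cycle genes, to the lowest, -0.27 for mitochondrially encoded genes, and most lists hold 0 or 1 called gene.

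The NCD libraries of week 4 were then set against the other 12 spleen libraries without HFD. Distance was taken as the median over genes of the absolute log2 CPM difference from the mean of the other groups without HFD. It was 0.230 and 0.331 for NCD replicates 1 and 2, beside 0.236 to 0.325 (median 0.262) in the 12 other libraries. Replicate 1 was thus the nearest of these 14 libraries to the others and replicate 2 the farthest. The HFD libraries of week 4 lay at 0.240, 0.237 and 0.269, within the range of libraries without HFD. NCD replicate 2 also had 762 tested genes with no count, against 248 to 391 in the other 4 week 4 libraries and 309 to 649 in the 12 others, although its total of 5004267 counts was the highest of the 5. Of the HFD libraries of other weeks, HFD week 2 replicate 3 had 1080 such genes and stood at 0.385. HFD week 16 replicate 1 stood at 0.351. The rest of the HFD libraries of weeks 2, 8 and 16 stood nearer than NCD replicate 2 and had fewer such genes. Over all genes, edgeR called 2 of 14686 (0.0136%) in NCD week 4 against the other groups without HFD, both lower. They were Vps26b (log2 fold change -1.44, edgeR adjusted p 0.0355) and Lamc1 (-1.42, adjusted p 0.0355). Without NCD replicate 1 the count was 178 (52 higher, 126 lower), and without NCD replicate 2 it was 0 (476 at an unadjusted p under 0.05). Treated the same way, week 0 and NCD week 2 had 0 calls each (828 and 904 genes at an unadjusted p under 0.05; 28 and 5 calls by DESeq2), NCD week 8 had 43 (0.293%) and NCD week 16 had 89 (0.606%; 0.545% higher, 0.0613% lower). NCD week 4 has 2 libraries against 3 in each of the others, and the order of these counts depended on the setting: with no filter NCD week 4 had 244 calls and NCD week 8 had 222, and NCD week 8 had 0 without its replicate 2 (827 at an unadjusted p under 0.05) and 3 without its replicate 3. NCD week 16 had 12 calls without its replicate 2. The rest to which each of these groups was compared included the NCD libraries of week 4. The counts of NCD weeks 8 and 16 are therefore not independent of those libraries. Both counts fell without NCD week 4 replicate 2 and rose without its replicate 1. HFD week 4 against the same 12 libraries gave 61 calls (0.415%), 60 higher (0.409%) and 1 lower (0.00681%). That count was 0 without HFD replicate 2 (861 at an unadjusted p under 0.05), 5 without HFD replicate 3 and 26 without HFD replicate 1.

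**Figure D4:**
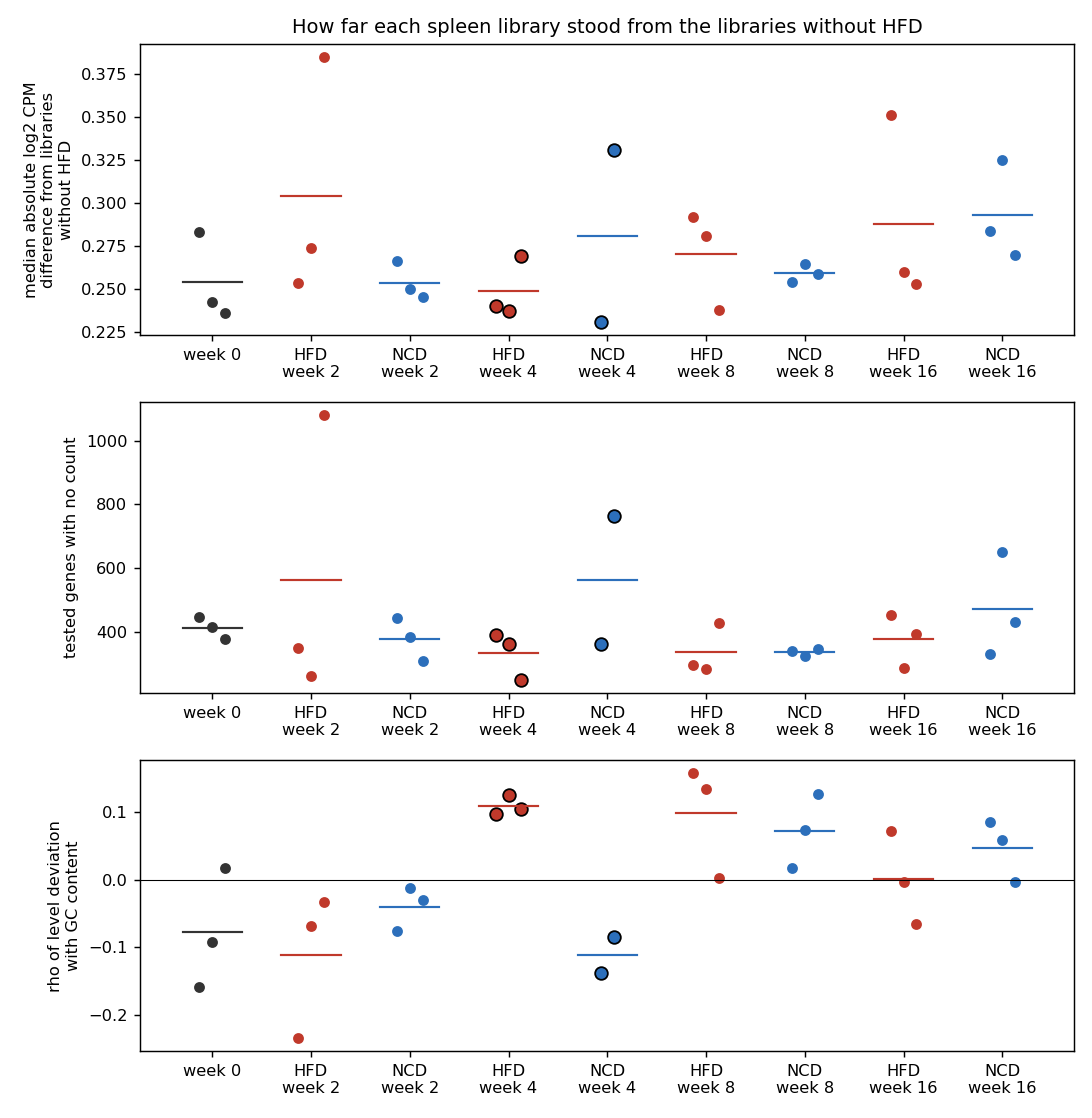
For each of the 26 spleen libraries by group, from top to bottom, the distance from the libraries without HFD (median absolute log2 CPM difference), the number of tested genes with no count, and the Spearman rho across genes between a gene's deviation from its mean level and its GC content. Red marks HFD, blue NCD and black week 0, bars are group means, and outlined points are week 4; NCD replicate 2 of week 4 stands at 0.331 and 762, while replicate 1 stands at 0.230 and 363.

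The 176 genes that rose were also followed in the other spleen libraries. A score, the mean log2 CPM of the 176 genes minus the mean of all genes tested, was 2.19, 2.25 and 2.24 in HFD libraries and 0.818 and 0.50 in NCD libraries, a gap that their choice fixes. In the other groups without HFD, which entered the fit that made the calls but were not in the contrast, the score was 0.652 to 1.30 in the 6 of week 0 and NCD week 2 and 1.71 to 2.04 in the 6 of NCD weeks 8 and 16. Since the genes were chosen for high values in the HFD libraries and low values in the NCD libraries of week 4, the place of these 5 libraries against the other groups is partly set by that choice. Without HFD, 174 of the 176 genes (98.9%) had a higher mean in NCD weeks 8 and 16 than in week 0 and NCD week 2, against 48.4% of all genes tested. As a description that the choice of genes favours, the HFD libraries of week 4 were above all 12 of these libraries in 47 of the 176 genes (26.7%, against 0.817% of all genes) and both NCD libraries of week 4 were below all 12 in 24 (13.6%, against 1.23%). Itgb7 is an example: beside the 2158 to 2661 CPM with HFD and 359 to 435 CPM with NCD at week 4, it ran from 327 to 722 CPM in week 0 and NCD week 2 and from 872 to 2188 CPM in NCD weeks 8 and 16. Lsm4 ran from 43.7 to 63.7 CPM in the earlier libraries and from 74.4 to 119 CPM in the later ones, and Adipor1 from 62.5 to 102 CPM and from 135 to 173 CPM. Libraries of HFD groups varied too, from 1.39 to 2.24 among the 3 of HFD week 8 and from 1.15 to 1.77 among the 3 of HFD week 2.

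**Figure D5:**
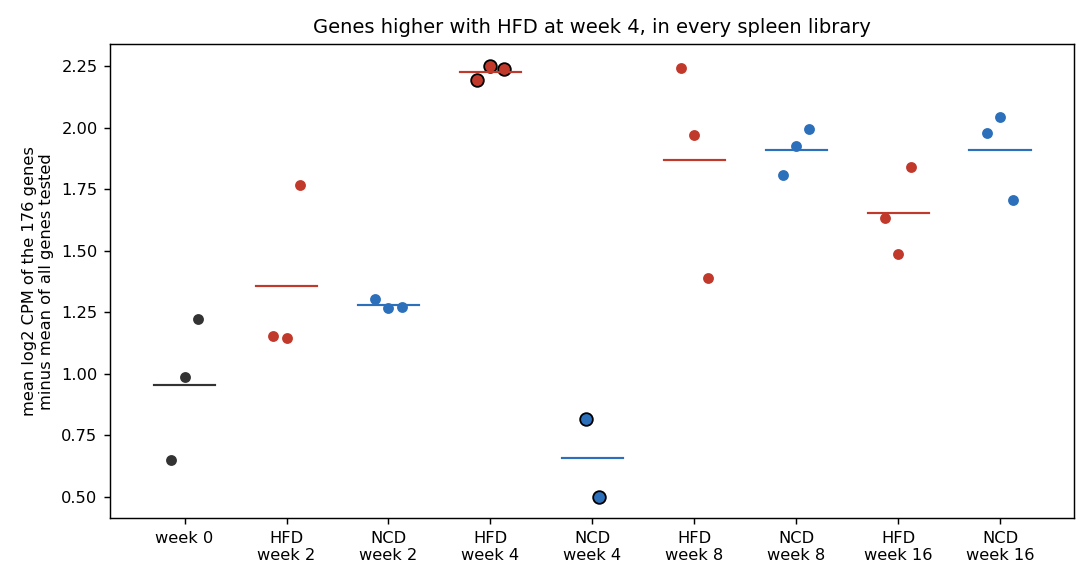
Score of the 176 genes called higher with HFD at week 4 (mean log2 CPM minus the mean of all genes tested) in each spleen library, by group in order of week, with HFD in red, NCD in blue, week 0 in black, group means as bars and week 4 outlined. HFD week 4 lies at 2.19 to 2.25 and NCD week 4 at 0.50 to 0.818, while libraries without HFD lie at 0.652 to 1.30 in week 0 and NCD week 2 and at 1.71 to 2.04 in NCD weeks 8 and 16.

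Base composition moved with this result. The genes that rose had a median transcript GC content of 51.8%, against 48.6% over the tested genes with a sequence, and a median level of 5.89 log2 CPM, against 4.40. Across 10448 genes, the Spearman rho between a gene's deviation from its mean level and its GC content was 0.097, 0.125 and 0.105 in HFD libraries and -0.138 and -0.085 in NCD libraries. The diets did not overlap in this measure. In the other libraries without HFD it was -0.159 to 0.018 in week 0 and NCD week 2 and -0.004 to 0.127 in NCD weeks 8 and 16. The later libraries ran higher, as for the score, but these ranges overlapped and those of the score did not. Within NCD week 4, replicate 1 had the lower rho and the higher score (0.818 against 0.50). With GC content corrected per library, edgeR called 188 genes (186 higher, 2 lower), which included 173 of the 182. Nuclear and noncoding RNAs summed to 4598, 4494 and 4134 CPM with HFD and 5312 and 5290 CPM with NCD. Most of this was Malat1, at 3115 to 3523 CPM with HFD and 4087 to 4168 CPM with NCD. The other spleen libraries without HFD ran from 3515 to 6167 CPM in the sum, which covers both diets. Of the 9 members tested 0 passed, and 2 had a positive log2 fold change. The part of RNA quality or library preparation in the result was not tested.

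The promoters of the genes that rose can be set beside this, although their shared rise at week 4 is set by their choice. RefSeq sequences of GRCm38.p6 were matched for 143 of the 176 genes and 9842 of the tested genes, and the 250 bases before the start site were read. The median GC content of these windows was 61.6% for the genes that rose and 59.6% for all tested, and the median number of CG pairs was 19 for the genes that rose and 16 for all tested. The GC box GGGCGG, on either strand, was found in 74.8% of the windows, against 57.7% of all. The sequence CCAAT was in 40.6% against 36.5%, the E-box CACGTG in 9.09% against 8.43%, the ETS core CCGGAAGT in 4.90% against 6.31%, the CRE TGACGTCA in 3.50% against 2.73%, the TATA box TATAAA in 5.59% against 6.53%, and the palindrome of NRF1 in 16.1% against 10.9%. GC-rich windows hold GC boxes more often, and the genes that rose also had higher levels than all tested, so these shares are descriptions only. The windows of 3 genes are printed because the results above give their genes in full, with each GC box in capitals. Itgb7 lies on chromosome 15 (chr15:102231936-102232185, minus strand) and its window holds 0 GC boxes and 5 CG pairs. Dusp2 lies on chromosome 2 (chr2:127335909-127336158, plus strand), with 3 GC boxes and 19 CG pairs. Adipor1 lies on chromosome 1 (chr1:134415128-134415377, plus strand), with 2 GC boxes and 15 CG pairs. The strongest rise among these genes, that of Dusp2, and the highest level, that of Itgb7, thus went with windows that differ in both counts.
Itgb7: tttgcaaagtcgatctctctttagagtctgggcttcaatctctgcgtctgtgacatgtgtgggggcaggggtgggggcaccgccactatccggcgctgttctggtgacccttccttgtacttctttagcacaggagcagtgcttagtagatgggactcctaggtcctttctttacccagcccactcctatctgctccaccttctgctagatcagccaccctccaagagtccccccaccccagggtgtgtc
Dusp2: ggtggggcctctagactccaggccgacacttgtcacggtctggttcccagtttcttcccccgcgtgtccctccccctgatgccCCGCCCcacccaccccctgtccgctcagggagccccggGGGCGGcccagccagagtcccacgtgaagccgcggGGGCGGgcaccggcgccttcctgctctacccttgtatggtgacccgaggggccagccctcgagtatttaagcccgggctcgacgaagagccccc
Adipor1: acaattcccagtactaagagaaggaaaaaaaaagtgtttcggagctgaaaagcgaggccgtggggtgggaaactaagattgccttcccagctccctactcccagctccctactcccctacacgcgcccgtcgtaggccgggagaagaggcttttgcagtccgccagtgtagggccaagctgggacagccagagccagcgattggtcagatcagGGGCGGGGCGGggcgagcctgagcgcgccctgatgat

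Whether the diet difference of week 4 differed from that of the other weeks was tested directly, as the week 4 effect minus the mean effect of weeks 2, 8 and 16 in spleen. It did for 141 of 14686 genes (0.960%; edgeR, adjusted p under 0.05), of which 137 (0.933%) had a more positive effect at week 4 and 4 (0.0272%) a more negative one. Lsm4 gave the smallest p: its log2 fold changes with HFD were 0.07, -0.24 and -0.64 at weeks 2, 8 and 16 beside 1.76 at week 4, a difference of 2.03 (edgeR adjusted p 0.000371). Prmt3, an arginine methyltransferase of ribosomes, differed by 1.91 and Tysnd1, a peroxisomal protease, by 2.75 (edgeR adjusted p 0.00163 each). Zfp52, a zinc finger gene, differed by -1.41 (edgeR adjusted p 0.0299), with 37.4, 31.1 and 45.8 CPM with HFD and 56.0 and 104 CPM with NCD at week 4. The other three with a more negative effect at week 4, named because they are few, were Erap1, which trims peptides for MHC class I, Phf11c and Gm15446. Over the 176 genes the median log2 fold change was 0.08 at week 2 (115 above 0), -0.02 at week 8 (82 above 0) and -0.24 at week 16 (35 above 0). The 1.45 of week 4 is raised by the choice of the genes on that contrast, so the medians are not compared with it. Without NCD replicate 2 of week 4 the count of 141 became 0 (741 at an unadjusted p under 0.05), and without NCD replicate 1 it became 219.

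The same was asked of tissue. At week 4 the diet effect in spleen differed from that in VAT for 80 of 15601 genes (0.513%; edgeR, adjusted p under 0.05), with 65 (0.417%) more positive in spleen and 15 (0.0961%) more negative. Zbtb7a differed by 2.55 (edgeR adjusted p 0.0100): in VAT it had 68.2 and 52.6 CPM with HFD and 63.9, 98.6 and 92.4 CPM with NCD. Atxn2l differed by 2.79 and Cactin, a splicing factor, by 3.88 (edgeR adjusted p 0.0100 each). Cactin had 65.0, 91.9 and 70.9 CPM with HFD and 19.7 and 14.5 CPM with NCD in spleen, and 17.8 and 6.58 CPM with HFD and 27.6, 57.2 and 34.6 CPM with NCD in VAT. For Cactin the HFD libraries were the higher ones in spleen and the lower ones in VAT, without overlap in either tissue. It was named for its tissue difference, so the choice favours such an order. Hgsnat, a lysosomal acetyltransferase, differed by 4.07 (edgeR adjusted p 0.0116). Dtx1, a Notch pathway ubiquitin ligase, was listed among the differences for its VAT values, where both HFD libraries were at 0 and NCD libraries at 1.86 to 3.63 CPM; in spleen it had 75.01, 88.3 and 74.4 CPM with HFD and 70.6 and 41.0 CPM with NCD. The SNARE gene Vamp4 differed by -1.54 and the splicing gene Zrsr1 by -2.31 (edgeR adjusted p 0.0100 and 0.0178), with the HFD libraries the lower ones in spleen. The 176 genes had a median log2 fold change in VAT of 0.66 at week 2 (96.0% above 0), -0.28 at week 4 (19.3%), -0.68 at week 8 (7.39%) and 0.42 at week 16 (81.8%), against 47.7% of all genes above 0 in VAT at week 4. Their direction in VAT thus varied from week to week. Without NCD replicate 2 of the spleen the count of 80 became 0 (1232 at an unadjusted p under 0.05), without VAT HFD replicates 2 or 3 it became 3 or 9, and without VAT NCD replicates 1, 2 or 3 it became 161, 25 or 18. Without spleen HFD replicates 2 or 3 it became 26 or 27, and without spleen NCD replicate 1 it became 174.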

How the data were processed

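RNA was measured in 56 mouse Treg libraries. The authors deposited unnormalized counts for each gene symbol, made with STAR 2.7.3a and featureCounts on mm10, per the submitters' processing notes. Per the labels' protocols, poly(A) RNA from 1000 cells was copied, amplified, tagmented and taken through 18 PCR cycles, and read as pairs of 38 bases without molecular identifiers. No source used here gives the annotation release, the strand setting or how multiply matching reads were treated. Of 55011 symbols, 52936 (96.2%) matched GENCODE M21, which gave GC content for 98.1% of the genes tested. Groups came from the titles, and 0 columns lacked a sample.

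The members and gene lists were chosen with earlier results of these data known. The 26 spleen libraries of 9 groups were fitted in R 4.3.3 with edgeR 4.0.16 (TMM, filterByExpr by group, robust quasi-likelihood fits), and spleen and VAT together for the tissue difference. A call is a Benjamini-Hochberg adjusted p under 0.05, and the SE is the fold change divided by the square root of F. Genes were named by smallest p, up to 10 in each direction, from calls of 2-fold or more whose mean log2 CPM was 3 or above and whose diets did not overlap, without receptor segments, ribosomal protein genes, pseudogenes or predicted genes. Only 2 falling genes met this. A few genes are not reported here. To these came up to 3 called members per list, a fixed set of Treg genes, and for the week and tissue differences the 5 smallest p in each direction. Distances, scores and principal components used log2 CPM with a prior count of 2. Floors of 3 counts cover counting error only. The tests were run first on simulated data. Same-numbered HFD and NCD libraries did not deviate together (r = -0.02 and 0.0008 over 14686 genes). With 2 such pairs this cannot exclude a shared mouse or preparation, and the labels do not state that the numbers pair libraries. No pair of libraries agreed within sampling noise (chi-square per degree of freedom 4.70 or more).

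Alternatives tried were DESeq2 1.42.0, limma 3.58.1 (voom, quality weights), RLE normalization, GC correction per library, no filter, a block for the replicate number, a fit to the compared groups alone, and leaving out each library. Where that left a single library in a group, it was taken to vary like the other groups.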

Additional observations from a re-analysis of the deposited data

Results flagged for a closer look

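Diet effects that differed between weeks or tissues by a test of the difference itself (edgeR, adjusted p under 0.05) were taken for a closer look. In spleen, 141 genes had a different effect at week 4 than on average at weeks 2, 8 and 16. The differences, week 4 minus the other weeks on the log2 scale, were 2.03 for Lsm4, 1.71 for Adipor1, 2.16 for Zbtb7a, 2.86 for Acbd6, 2.43 for Atxn2l, 1.46 for Polg, 1.54 for Pole4, 1.76 for Vps26b, 2.00 for Clptm1 and 2.39 for Nudt18. Among members of the gene lists they were 3.15 for Dusp2, 2.02 for Ier2, 1.29 for Socs1, 2.49 for Itgb7 and 2.87 for Rps2. Prmt3 differed by 1.91, Tysnd1 by 2.75, Cactin by 2.22 and Hgsnat by 2.41. Of the genes picked out after their values were seen, Tgfbr2 differed by 1.14, Rasgrp1 by 1.10, Bcl11b by 1.29, Notch2 by 1.11, Kdm6b by 1.73 and Esyt1 by 0.83. The genes with a more negative effect at week 4 were Zfp52 at -1.41, Gm15446 at -1.40, Erap1 at -0.69 and Phf11c at -0.94.

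At week 4, 80 genes had a different diet effect in spleen than in VAT. The differences, spleen minus VAT on the log2 scale, were 2.44 for Lsm4, 1.78 for Adipor1, 2.55 for Zbtb7a, 2.84 for Acbd6, 2.79 for Atxn2l, 1.56 for Polg and 2.31 for Nudt18. They were 2.79 for Itgb1, 3.57 for Rps2, 3.04 for Tysnd1, 3.88 for Cactin and 4.07 for Hgsnat. The fitted value of 7.30 for Dtx1 rests on VAT libraries at 0 and is no bound. Notch2 differed by 1.38, Kdm6b by 1.53 and Prkch by 1.66. The more negative values in spleen were -1.70 for Zfp52, -1.54 for Vamp4, -1.44 for Ccdc25, -2.31 for Zrsr1, -1.42 for Tmem18 and a fitted -4.27 for Muc1, which was at or under 3 counts in each HFD library of the spleen. Both sets of differences share the NCD libraries of week 4, and neither had a call left without NCD replicate 2.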

How the results depend on the processing

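The limits of the week 4 comparison are its 2 NCD libraries , 1 of which decides the counts. The count of 182 genes stayed within 1.5 times under RLE normalization (183), GC correction (188), voom (139), a fit to the compared groups alone (204) and the replicate block (150, with pairing by number not stated in the labels). It moved to 305 with no filter and 307 with DESeq2, and ran from 0 to 268 with a library left out. RLE normalization kept all 182 calls, DESeq2 178, GC correction 173, no filter 169, only the groups compared 156, the block 145 and voom 129. The cause of these moves was not tested, beyond the number of genes or libraries each setting leaves.

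For NCD week 4 against the other groups without HFD, the 2 calls became 69 with DESeq2, 0 with voom, 244 with no filter, 10 with only the groups compared and 0 with the replicate block, and 0 to 178 with a library left out. Leaving out week 0 replicate 1 gave 15 and replicate 3 gave 4. For HFD week 4 against those groups, the 61 calls became 127 with DESeq2, 196 with voom, 173 with no filter and 145 with only the groups compared, and 0 to 87 with a library left out. For the week difference, the 141 calls became 251 with DESeq2 and 258 with no filter, and 0 to 219 with a library left out. For the tissue difference, the 80 calls became 226 with DESeq2, 28 with voom and 449 with no filter, and 0 to 174 with a library left out.

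Of the other groups without HFD, week 0 went from 0 calls to 28 with DESeq2, 64 with no filter and 7 with only the groups compared, and 0 to 18 with a library left out. NCD week 2 went from 0 to 5 with DESeq2, 2 with voom and 28 with no filter, and 0 to 1 with a library left out. NCD week 8 went from 43 to 103 with DESeq2, 113 with voom, 222 with no filter, 97 with only the groups compared and 19 with the replicate block, and 0 to 110 with a library left out. NCD week 16 went from 89 to 193 with DESeq2 and 387 with no filter, and 12 to 158 with a library left out.

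With only genes at a mean log2 CPM of at least 5, distances became 0.129, 0.134 and 0.165 for HFD and 0.127 and 0.187 for NCD libraries, with NCD replicate 2 still the farthest of the libraries without HFD. They ran from 0.249 to 0.267, 0.249 to 0.259 and 0.283 to 0.294 for the HFD libraries with an NCD library left out, and were 0.246 for NCD replicate 1 and 0.351 for NCD replicate 2 with the other left out. Without NCD replicate 1, 1 of the 12 other libraries lay farther than NCD replicate 2.

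Of the named genes, 39 were called, and none of these reversed under any alternative run. The called genes that lost their call numbered 0 with DESeq2 and RLE, 4 with no filter and 5 with GC correction. They numbered 5 with only the groups compared, 9 with the block and 11 with voom. Without HFD replicate 1, 2 or 3, the lost calls numbered 7, 13 or 12. The runs without an NCD library left a single library in that group, so their lost calls are not counted here. All of these calls were lost without NCD replicate 2, and part of them without NCD replicate 1. Signs turned for genes not called: Ifit3 was at 0.01 with GC correction and 0.00 with no filter, and at -0.54 to 0.26 with a library left out. Isg15 was at -0.03 with voom and -0.20 to 0.46 with a library left out. Junb was at -0.26 with GC correction, -0.03 with voom and -0.10 to 0.11 with a library left out, and Klf2 at -0.18 with GC correction and -0.05 to 0.18 with a library left out. With a library left out, Ctla4 was at -0.03 to 0.14, Fos at -0.58 to 2.74, Foxp3 at -0.15 to 0.10, Gata3 at -0.06 to 0.41, Il10 at -0.07 to 6.48, Irf7 at -0.03 to 0.18 and Nr4a1 at -0.04 to 0.39.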

Other observations

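A few more genes with known roles in T cells passed the test at week 4, and were picked out after their values were seen. Kdm6b, a demethylase of lysine 27 on histone H3, had 26.5, 27.3 and 31.5 CPM with HFD and 12.9 and 6.84 CPM with NCD. Notch2, a Notch receptor, had 102, 107 and 80.3 CPM with HFD and 58.3 and 50.3 CPM with NCD. Esyt1, a protein of contact sites between the endoplasmic reticulum and the plasma membrane, had 344, 454 and 432 CPM with HFD and 248 and 191 CPM with NCD. It was also higher in HFD week 4 than in the other groups without HFD (log2 fold change 0.79, edgeR adjusted p 0.00111), where it ran from 175 to 292 CPM over 12 libraries. The gene C030034I22Rik was the only call that was lower in HFD week 4 than in those 12 libraries, at 0.516, 1.93 and 1.30 CPM with HFD and 2.13 to 8.15 CPM in the others (edgeR adjusted p 0.0311).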
